A study of Mus musculus with 18 samples.

Results

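The livers of wild-type (WT) mice were compared between 2 sampling times, 34- and 12-weeks post-injection, in a study of lysosomal acid lipase deficiency and its correction by gene transfer. Of the 18 RNA-seq libraries of the series, 6 came from WT livers, 3 at each time point, and these were all taken by genotype and time as labelled. Of 35441 genes in the count table, the 14533 with more than 100 reads summed over the 18 libraries were tested, and 20908 were not. The 12 other libraries came from Lipa-/- mice, which lack exon 4 of the mouse lysosomal acid lipase gene through a CMV-driven Cre, either untreated or injected at 10 to 12 weeks of age with an rAAV8 vector carrying human LIPA under a hepatocyte promoter, with 3 livers per group and time point.

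The WT mice carried no deleted allele and are labelled as given no treatment, so 12- and 34-weeks count from the injection of the treated mice, and the labels give the same times as 3 and 8 months. The mice were of the C57/BL6N background and were kept on standard chow. The study describes its controls as littermates of the same age and sex, and its Lipa-/- mice as male. The Y-linked gene Ddx3y was read at 55.6 to 68.7 CPM (reads scaled to a common library size with TMM factors) in all 6 WT livers. Each time point has its own study code in the column names (22-132 at 12-weeks and 22-106 at 34-weeks), so time and study code cannot be told apart. Both codes also hold the Lipa-/- livers of the same time point, apart from 1 untreated liver at 12-weeks with a code of its own.

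In mice, the liver expresses many genes at different levels in the 2 sexes. In males, growth hormone reaches the hepatocyte in pulses that activate the transcription factor STAT5, which maintains genes such as those of the major urinary proteins and certain cytochromes P450 and keeps female-biased genes low, whereas in females growth hormone is nearly continuous. Hepatocytes also store fat in lipid droplets, which are coated by perilipins and enlarged by CIDE proteins, and they burn fatty acids through enzymes that are largely under the control of the nuclear receptor PPARα.

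Libraries held between 20679391 and 25833134 reads assigned to genes, and 15 hepatocyte markers had a summed level of 99383 to 138312 CPM. The library of mouse 1 at 34-weeks stood apart from the other 2 of its group. Its log2 levels correlated with theirs at r = 0.913 across genes, compared to r = 0.986 between those 2, and at r = 0.962 with mouse 2 at 12-weeks. Mouse 3 at 12-weeks in turn correlated with mouse 2 and 3 at 34-weeks at r = 0.968 and 0.973, and with mouse 1 and 2 of its own group at r = 0.976 and 0.949. In mouse 1 at 34-weeks, short genes were raised over long genes by 0.89 on the log2 scale. The same quantity was 0.53 in mouse 2 at 12-weeks and -0.53 to 0.07 in the other 4 libraries, so this trend crossed both time points. Values are given below for mouse 1, 2 and 3 in this order, and the numbers do not pair mice across time points.

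The edgeR fit took its estimate of the spread between mice from all 18 libraries, which include the Lipa-/- livers. A gene was called where edgeR's quasi-likelihood test over all 14533 genes gave an adjusted p under 0.05 and the levels differed by more than 1 on the log2 scale. By this rule 47 genes changed between the time points, which is 0.323% of the tested genes. Of these, 32 genes (0.22%) were higher at 34-weeks and 15 (0.103%) were lower. The median log2 fold change over all tested genes was 0.07, with 60.7% of genes above 0 and 39.0% below. An unadjusted p under 0.05 was reached by 7.81% of genes, 5.3% on the higher and 2.51% on the lower side. The 3 mice of one time point all lay above or all lay below the 3 of the other in 1886 genes, or 13.0% of those tested (8.15% higher and 4.82% lower at 34-weeks), and in 46 of the 47 called genes. Of the 32 higher genes, 27 had their lowest 34-week value in mouse 1, and 25 had their highest 12-week value in mouse 3. The count of 47 rested on single libraries: it was 7 without mouse 2 at 34-weeks, 13 without mouse 3 at 34-weeks, 9 without mouse 1 at 12-weeks, 13 without mouse 2 at 12-weeks and 102 without mouse 1 at 34-weeks. All 47 kept the direction of their change in every one of these fits. They were chosen from the same libraries, so this is no independent check.

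Among the called genes, 10 lay within 1 Mb of another called gene, in 4 places of the genome. Slc22a26, Slc22a27 and Slc22a29, of the organic anion transporter family, lie together on the minus strand at chr19:7758406-8230661 (GRCm39) and were all higher at 34-weeks. The serine protease inhibitor genes Serpina1e and Serpina9 and the pseudogene Serpina4-ps1 lie at chr12:103913187-104052983 and were all lower. The acyl-CoA thioesterase genes Acot2 and Acot3 lie at chr12:84034428-84107176 and were both higher. On chromosome 10, Vnn1 was higher and Moxd1, 318067 bases further on, was lower.

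The 250 bases before the RefSeq start are shown for the 3 Slc22a neighbours, since they rose together, for Selenbp2 and Serpina1e, the 2 genes that fell from the highest levels, and for Moxd1, which was close to absent at 34-weeks. They are written 5′ to 3′ on the strand of the gene, from the RefSeq windows of GRCm38.p6, which were matched by symbol. Capitals mark a match to TTCNNNGAA, the palindromic core to which STAT5 binds.
Slc22a26, chr19:7802668-7802917, minus strand: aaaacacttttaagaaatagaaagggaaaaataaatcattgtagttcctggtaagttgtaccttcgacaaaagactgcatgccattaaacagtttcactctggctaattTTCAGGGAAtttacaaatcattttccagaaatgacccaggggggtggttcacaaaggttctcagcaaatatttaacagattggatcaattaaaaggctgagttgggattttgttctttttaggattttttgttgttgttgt
Slc22a27, chr19:7966028-7966277, minus strand: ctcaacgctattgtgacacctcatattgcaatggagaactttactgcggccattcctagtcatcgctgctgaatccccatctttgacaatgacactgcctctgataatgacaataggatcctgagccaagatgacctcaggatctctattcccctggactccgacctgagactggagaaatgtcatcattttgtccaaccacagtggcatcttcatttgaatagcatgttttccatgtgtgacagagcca
Slc22a29, chr19:8218901-8219150, minus strand: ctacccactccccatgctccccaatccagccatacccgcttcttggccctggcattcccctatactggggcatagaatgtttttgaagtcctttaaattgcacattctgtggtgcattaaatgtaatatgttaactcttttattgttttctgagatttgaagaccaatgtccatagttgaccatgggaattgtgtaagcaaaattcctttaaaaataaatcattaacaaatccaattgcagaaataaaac
Selenbp2, chr3:94693323-94693572, plus strand: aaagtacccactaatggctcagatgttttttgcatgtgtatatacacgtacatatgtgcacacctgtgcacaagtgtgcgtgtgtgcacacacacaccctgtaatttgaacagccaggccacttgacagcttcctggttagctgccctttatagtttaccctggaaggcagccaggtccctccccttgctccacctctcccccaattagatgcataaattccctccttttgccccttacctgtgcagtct
Serpina1e, chr12:103956898-103957147, minus strand: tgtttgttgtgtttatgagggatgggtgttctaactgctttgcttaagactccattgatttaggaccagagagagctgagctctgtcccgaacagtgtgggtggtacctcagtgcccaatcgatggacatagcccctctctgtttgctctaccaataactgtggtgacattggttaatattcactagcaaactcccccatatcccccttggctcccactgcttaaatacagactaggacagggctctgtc
Moxd1, chr10:24223267-24223516, plus strand: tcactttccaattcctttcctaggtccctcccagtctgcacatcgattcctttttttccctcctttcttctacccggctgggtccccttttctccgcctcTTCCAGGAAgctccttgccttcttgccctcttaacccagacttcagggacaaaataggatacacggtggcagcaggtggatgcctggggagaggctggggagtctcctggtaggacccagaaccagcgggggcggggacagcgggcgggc
On either strand, TTCNNNGAA was found in the 250 bases before the start of Slc22a26 (bases 141 to 133 upstream) and Moxd1 (bases 150 to 142 upstream), and in none of the other 4. Of the called genes, 24 of the 32 higher and 8 of the 15 lower had a RefSeq window. The motif stood in 1 of the 24 (Slc22a26, 4.17%) and in 2 of the 8 (Moxd1 and Prok1), next to 7.45% of the 10985 tested genes with a window. A direct repeat of the kind PPAR receptors bind (AGGNCA, any base, and AGGNCA again) stood in none of these called genes and in 0.373% of the tested genes with a window. A match of letters is not a measured binding site.

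Several genes that are normally higher in female than in male livers rose in the WT livers at 34-weeks. Of 22 listed, 14 passed the read minimum, and 6 of these were called higher and none lower. Above 0 were 13, and the median log2 fold change was 3.79. Over all tested genes, 0.22% were called higher and 60.7% were above 0. Genes such as Cyp2b9 passed the minimum mostly through the 34-week WT livers, so this count and median describe only the members that passed. The 8 others had at most 35 reads in a WT library. The call was made for Slc22a26, Slc22a27, Cyp2b9, Hao2, Abcd2 and Acot3. The count was 6 without mouse 1 at 34-weeks, but 1 without mouse 1 or 2 at 12-weeks or mouse 2 at 34-weeks, 2 without mouse 3 at 34-weeks and 3 without mouse 3 at 12-weeks.

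Slc22a27 was read at 0.321, 0.335 and 0.89 CPM at 12-weeks and at 8.32, 14.6 and 14.4 CPM at 34-weeks. Every mouse at 34-weeks was thus far above the highest mouse at 12-weeks. The log2 fold change of Slc22a27 was 4.59 ± 0.45 (adjusted p = 0.000119), here and below with the SE from the 18-library fit. Slc22a29, its neighbour, rose from 0.268, 0.239 and 0.105 to 4.89, 5.63 and 6.07 CPM (log2 fold change 4.72 ± 0.56, adjusted p = 0.000955), with little spread among the 3 mice at 34-weeks. Slc22a26 was at 0.0536, 0.143 and 0.105 CPM and at 1.89, 4.85 and 2.37 CPM (log2 fold change 4.83 ± 0.84, adjusted p = 0.0198). Slc22a27 and Slc22a29 were called with any one library left out. The related Slc22a28 and Slc22a30 overlapped between the groups, had log2 fold changes of -1.11 and -0.59, and were not called (adjusted p = 0.623 and 0.608). These transporters resemble each other in sequence, so the reads given to each are uncertain.

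Cyp2b9, a cytochrome P450 that hydroxylates steroids, was nearly silent at 12-weeks, with 0.107, 0.0957 and 0.785 CPM, and stood at 8.43, 50.7 and 44.6 CPM at 34-weeks (log2 fold change 6.71 ± 1.10, adjusted p = 0.0198). Its 34-week value was lowest in mouse 1, yet still above all mice at 12-weeks. Its close relative Cyp2b13, with 53 reads in the whole series, fell below the read minimum and had 0, 0 and 0 reads at 12-weeks and 3, 13 and 35 reads at 34-weeks. Hao2, which encodes a peroxisomal hydroxyacid oxidase, was read at 0, 0 and 0.209 CPM and then at 2.71, 2.25 and 3.07 CPM (log2 fold change 5.18 ± 0.96, adjusted p = 0.0292). Abcd2, a peroxisomal transporter of very long-chain fatty acids, was at 0.589, 0.861 and 1.88 CPM and at 9.91, 26.2 and 38.4 CPM (log2 fold change 4.48 ± 0.86, adjusted p = 0.0345). In both genes the groups were well apart, and for Abcd2 mouse 1 was the lowest and mouse 3 the highest at 34-weeks.

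Other female-biased genes pointed the same way without passing the test. Cyp2a4, a steroid 15α-hydroxylase, was at 0.161, 0.191 and 0.262 CPM and at 2.12, 6.11 and 13.2 CPM (log2 fold change 5.09, adjusted p = 0.135), A1bg at 0.161, 0 and 0.0523 CPM and at 0.295, 2.17 and 1.44 CPM (adjusted p = 0.204), and Cyp17a1, which makes androgen precursors, at 3.80, 6.27 and 11.0 CPM and at 12.4, 45.9 and 41.6 CPM (adjusted p = 0.36). The mice did not overlap in these 3 genes. Prlr, the prolactin receptor, overlapped between the groups (55.2, 66.4 and 76.1 CPM and 62.2, 115 and 119 CPM), and Cyp2c69 was the only tested member below 0 (log2 fold change -0.82, adjusted p = 0.933).

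The listed genes that are normally higher in male livers had lower values at 34-weeks, and 2 of them were called. All 16 passed the read minimum and had a log2 fold change below 0, with a median of -1.42. With total-count scaling 15 were below 0. Over all tested genes, 0.103% were called lower and 39.0% were below 0. In 9 of the 16, the mice at 34-weeks all lay under those at 12-weeks, where 4.82% of all tested genes did so. The called genes were Serpina1e and Cyp7b1, and the count was between 1 and 4 with 1 library left out.

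Serpina1e, one of the α1-antitrypsin genes, was read at 7998, 9335 and 3290.4 CPM at 12-weeks and at 519, 317 and 175 CPM at 34-weeks. It fell by 4.35 on the log2 scale (SE 0.58, adjusted p = 0.00362), and every mouse at 34-weeks lay far under every mouse at 12-weeks. Its paralogs were not called: the log2 fold changes of Serpina1a, Serpina1b, Serpina1c and Serpina1d were -0.43, -0.18, -0.78 and -0.50 (lowest adjusted p = 0.529). The 5 genes are near-identical copies, so the share of reads that Salmon gave to each is uncertain. Of its called neighbours, Serpina4-ps1 was at 306, 83.9 and 154 CPM and at 14.9, 2.88 and 6.81 CPM (log2 fold change -4.48 ± 0.79, adjusted p = 0.0217), and Serpina9 at 2.09, 2.77 and 1.31 CPM and at 0.413, 0.0394 and 0.0778 CPM (log2 fold change -3.65 ± 0.71, adjusted p = 0.0378).

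Cyp7b1, the oxysterol 7α-hydroxylase of the alternative bile acid pathway, was at 348, 419 and 313 CPM and at 112, 91.4 and 87.5 CPM (log2 fold change -1.89 ± 0.28, adjusted p = 0.00693). The 3 mice at 34-weeks lay close together and far under the 3 at 12-weeks. It was the only called gene among 20 genes of bile acid and sterol transport. Cyp7a1, which encodes the rate-limiting enzyme of the classical pathway, overlapped between the groups (66.9, 39.1 and 32.1 CPM and 18.2, 71.4 and 69.8 CPM, adjusted p = 1), and Cyp2c70, which makes muricholic acids, did not overlap but was not called (902, 941 and 659 CPM and 456, 280.1 and 212 CPM, adjusted p = 0.122).

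Some male-biased genes that were not called varied widely among the 3 mice at 34-weeks. Hsd3b5, a hydroxysteroid dehydrogenase, was at 429, 487 and 334 CPM and at 167, 2.05 and 9.49 CPM (log2 fold change -2.81, adjusted p = 0.378). Slco1a1, an uptake transporter of organic anions, was at 578, 639 and 435 CPM and at 339.6, 25.2 and 122 CPM (adjusted p = 0.364). In both, mouse 1 was closest to the 12-week level. Cyp4a12b, a fatty acid ω-hydroxylase induced by androgen, behaved more evenly, with 78.3, 88.4 and 139 CPM and 12.6, 8.82 and 10.5 CPM (adjusted p = 0.0627), and Elovl3, a fatty acid elongase, was at 881, 1005 and 789 CPM and at 472, 349 and 368 CPM (adjusted p = 0.374).

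The same spread was seen in the Mup genes, which encode the major urinary proteins. Summed over 22 genes, they made up 186047, 160990.4 and 99748 CPM at 12-weeks and 138252, 31055 and 47179 CPM at 34-weeks, so that mouse 1 at 34-weeks lay among the 12-week mice. None of the 22 was called at an adjusted p under 0.05 by edgeR (3 had an unadjusted p under 0.05 and DESeq2 called 1), although 21 were below 0 and the median was -0.69. Without mouse 1 at 34-weeks the median was -1.85; Mup21 was then called, as it was without mouse 3 at 12-weeks. Mup21 itself was at 505, 734 and 290.3 CPM and at 132, 46.1 and 77.2 CPM (log2 fold change -2.59, adjusted p = 0.0512). Single Mup genes are near-identical and share reads, which limits the values of each more than their sum.

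**Figure D1:**
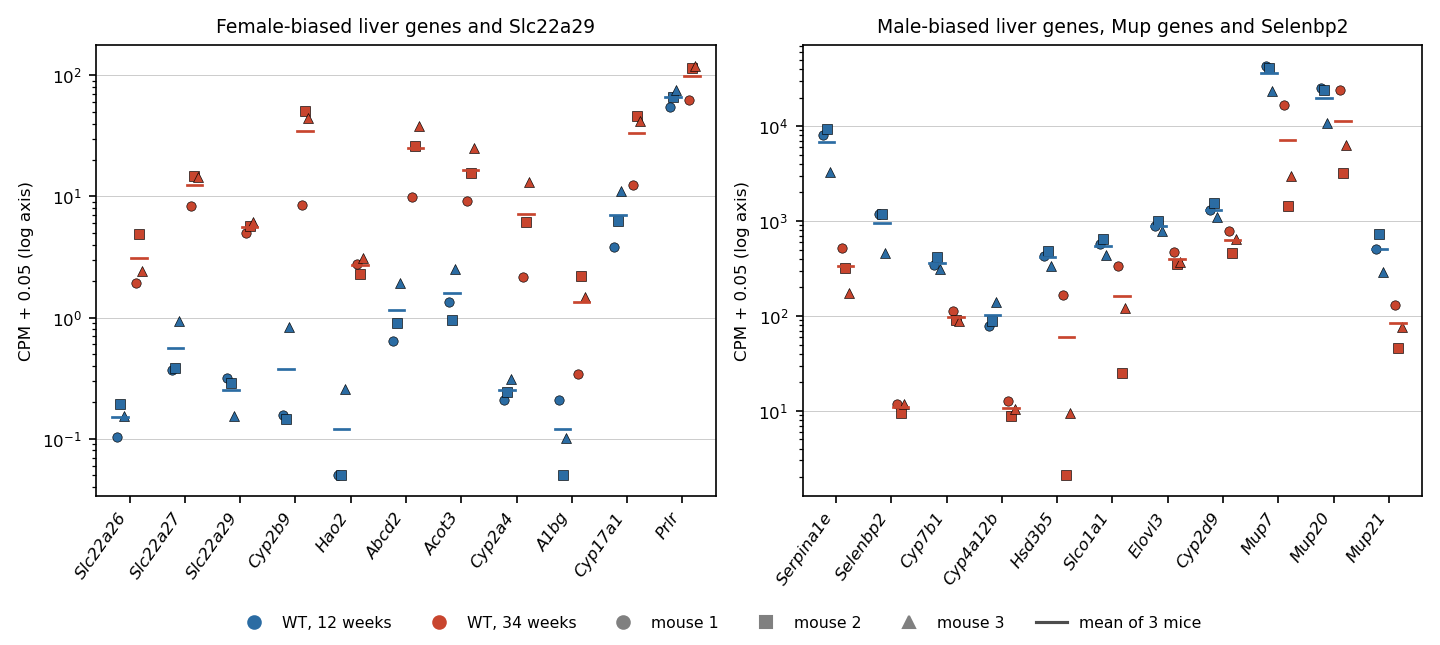
Level of single genes in the 6 WT livers, as CPM + 0.05 on a log axis; each point is 1 mouse (circle, square and triangle for mouse 1, 2 and 3), blue at 12-weeks and red at 34-weeks, and the short line is the mean of 3 mice. The red points of Slc22a27 (8.32 to 14.6 CPM) lie above all blue ones and those of Selenbp2 (9.53 to 11.8 CPM) below, while mouse 1 at 34-weeks stays near the 12-week level in Mup20.

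The components of the growth hormone axis held no gene called by edgeR among 16, with a median log2 fold change of 0.07 (5 had an unadjusted p under 0.05, and DESeq2 called 2). Without mouse 1 at 12-weeks or mouse 3 at 34-weeks, edgeR called 1 of them. Socs2 and Cish, which are induced by STAT5 and dampen the signal of the receptor, were lower in all 3 mice at 34-weeks. Socs2 was at 31.2, 29.2 and 21.7 CPM and at 5.66, 3.62 and 10.1 CPM (log2 fold change -2.08, adjusted p = 0.202), and Cish at 69.9, 29.6 and 40.5 CPM and at 3.07, 1.22 and 21.0 CPM (-2.46, adjusted p = 0.269). Bcl6, a repressor that binds at STAT5 sites, is male-biased too but was not on the male-biased list. It was at 9.96, 5.26 and 9.05 CPM and at 43.1, 67.9 and 8.83 CPM (2.30, adjusted p = 0.32), high in 2 of the 3 mice at 34-weeks, the direction opposite to that list. Smaller differences without overlap were read for the growth hormone receptor Ghr (528, 551 and 539 CPM and 471, 412 and 405 CPM) and for Igf1 (548, 606 and 579 CPM and 412, 369 and 393 CPM).

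The gene with the most significant fall was Selenbp2, which encodes a selenium-binding protein and lies on the plus strand at chr3:94600863-94611720. It was read at 1185, 1196 and 459.5 CPM at 12-weeks and at 11.7, 9.53 and 11.8 CPM at 34-weeks, and it fell by 6.43 on the log2 scale (SE 0.57, adjusted p = 4.23e-05). The 3 mice at 34-weeks were nearly equal. Its paralog Selenbp1 did not change detectably (log2 fold change 0.01, adjusted p = 1), with 274, 335 and 303 CPM and 296, 269.7 and 349 CPM. Selenbp2, Serpina1e, Slc22a27, Slc22a29 and Vnn1 were the 5 genes called with any 1 of the 6 libraries left out.

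Moxd1, a copper-dependent monooxygenase, was read at 59.6, 54.6 and 1.62 CPM at 12-weeks, low in mouse 3, and with 1 read in all at 34-weeks. From 2285 reads against 1, its level was 2650-fold higher at 12-weeks, with an exact 95% interval of 475 to 105000 that covers counting error only (adjusted p = 0.0405). Tmeff2, a transmembrane protein with follistatin domains, had 57 reads against 1 (66.1-fold, 11.4 to 2660), and Sybu, a microtubule-associated linker, had 59 reads at 34-weeks against 1 at 12-weeks (50.9-fold, 8.78 to 2040). For these 3, the fold rests on a single read in one of the groups.

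Of 18 genes of lipid droplets, 3 were called higher (Cidea, Cidec and Cd36) and none lower, 16 were above 0, and the median log2 fold change was 0.57. Over all tested genes, 0.22% were called higher and 60.7% were above 0. In 9 of the 18 all mice at 34-weeks lay above those at 12-weeks, compared to 8.15% of all tested genes. The count of called members was 3 without mouse 1 at 34-weeks, 2 without mouse 3 at 12-weeks, and 0 without any of the other 4 libraries.

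Cidea, which promotes the fusion of lipid droplets, was read at 0.161, 0.478 and 0.209 CPM at 12-weeks and at 1.83, 59.1 and 44.4 CPM at 34-weeks (log2 fold change 6.91 ± 1.22, adjusted p = 0.0217). Mice 2 and 3 at 34-weeks were far above mouse 1, which itself was above all 12-week mice. Cidec, with the same role, was also lowest in mouse 1 of the 34-week mice, with 0.75, 1.82 and 1.57 CPM and 3.30, 26.4 and 38.9 CPM (log2 fold change 4.05 ± 0.67, adjusted p = 0.0151), whereas Cideb, the form that hepatocytes express constitutively, was at 233, 288 and 313 CPM and at 255, 304 and 323 CPM and was not called (adjusted p = 1). Of 10 adipocyte markers 5 passed the read minimum, and Cidec, itself on that list, was the called one. Their summed level was 2305 to 2965 CPM at 12-weeks and 1405 to 3162 CPM at 34-weeks. Nearly all of it was Car3 (2286, 2922 and 2943 CPM and 1382, 2912 and 3102 CPM), so the sum describes that gene. The defining adipocyte transcripts were close to 0: Adipoq had 1, 6 and 3 reads at 12-weeks and 0, 0 and 2 reads at 34-weeks, Plin1 had 3, 3 and 5 and then 0, 0 and 2 reads, and Lep had none.

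Cd36, a fatty acid translocase, was at 15.8, 23.6 and 50.5 CPM and at 84.9, 146 and 187 CPM (log2 fold change 2.22 ± 0.41, adjusted p = 0.0249). Gpat3, which catalyses the first step of glycerolipid synthesis, rose from 0.964, 0.622 and 1.78 to 5.78, 10.1 and 11.5 CPM (log2 fold change 3.02 ± 0.43, adjusted p = 0.00505) and was called in 5 of the 6 fits with 1 library left out. Vldlr, a receptor that takes up triglyceride-rich lipoproteins, was at 0.161, 0.191 and 0.837 CPM and at 2.71, 4.10 and 5.91 CPM (log2 fold change 3.41 ± 0.70, adjusted p = 0.0478), and Osbpl3, an oxysterol-binding protein, at 0.696, 0.67 and 2.67 CPM and at 2.59, 11.8 and 21.7 CPM (adjusted p = 0.047). The last is the only called gene in which the groups overlapped, since mouse 1 at 34-weeks was below mouse 3 at 12-weeks. Not called were Mogat1, a monoacylglycerol acyltransferase (0.643, 0.718 and 1.78 CPM and 3.42, 8.43 and 12.2 CPM, adjusted p = 0.116), the nuclear receptor gene Pparg (5.89, 4.31 and 7.59 CPM and 8.43, 13.7 and 20.2 CPM, adjusted p = 0.293) and the droplet coat gene Plin2 (471, 582 and 544 CPM and 856, 797 and 860.1 CPM, adjusted p = 0.51), all 3 without overlap.

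Of 25 genes of fatty acid oxidation, ketogenesis and PPARα targets, all were above 0, with a median log2 fold change of 0.52. They stayed above 0 in each fit with 1 library left out. They also did under total-count scaling, but that setting moved the median over all tested genes up by 0.14. It is therefore no check on genes already above 0. The test called 3 (Vnn1, Acot2 and Acot3) where it called 0.22% of all tested genes higher, and 13 lay higher without overlap, as did 8.15% of all tested genes. Vnn1, a pantetheinase, was at 5.84, 8.18 and 21.9 CPM and at 72.8, 87.1 and 108 CPM (log2 fold change 2.90 ± 0.39, adjusted p = 0.00377). The thioesterases Acot2, which is mitochondrial, and Acot3, which is peroxisomal, were at 3.27, 3.30 and 5.39 CPM and 10.2, 11.6 and 18.3 CPM (log2 fold change 1.75 ± 0.32, adjusted p = 0.0244) and at 1.29, 0.909 and 2.46 CPM and 9.08, 15.6 and 25.2 CPM (log2 fold change 3.42 ± 0.68, adjusted p = 0.0398). In all 3 genes mouse 3 was the highest of its group at both time points. Without any one of mouse 1 and 2 at 12-weeks and mouse 2 and 3 at 34-weeks, 1 of the 3 was still called.

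Cyp4a14, a fatty acid ω-hydroxylase, showed how far single mice could differ: it was at 3.37, 4.35 and 62.5 CPM and at 143, 354 and 522 CPM, so that mouse 3 at 12-weeks was already raised (log2 fold change 3.86, adjusted p = 0.296). Pdk4, which restrains glucose oxidation, was at 10.1, 11.6 and 10.7 CPM and at 32.9, 45.2 and 29.4 CPM (adjusted p = 0.124). Cpt1a, of mitochondrial fatty acid import, had a log2 fold change of 0.87 and Ppara itself one of 0.46, and neither was called (adjusted p = 0.612 and 0.928). De novo lipogenesis had no member called by edgeR or DESeq2 among 20 (2 had an unadjusted p under 0.05 by edgeR), and its median of 0.14 changed sign without mouse 3 at 34-weeks (-0.30).

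**Figure D2:**
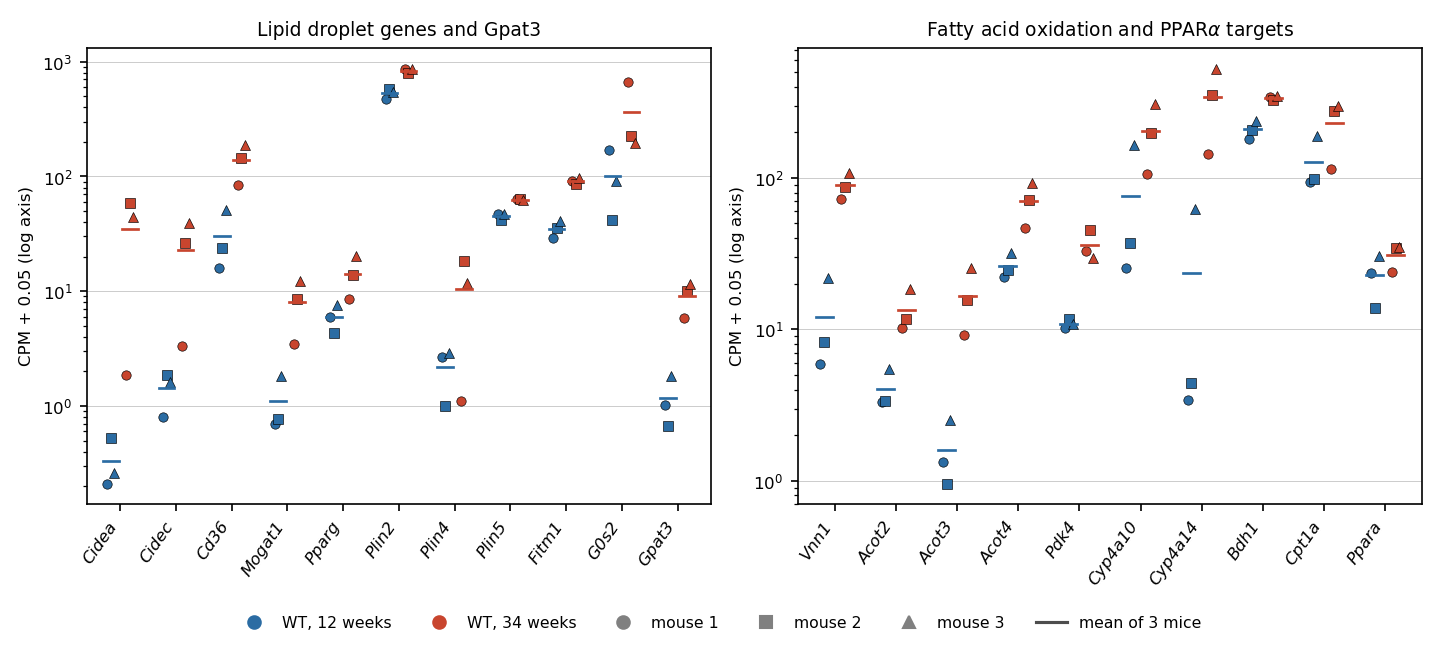
Level of genes of lipid droplets (left) and of fatty acid oxidation and PPARα targets (right) in the 6 WT livers, as CPM + 0.05 on a log axis; points are single mice (circle, square and triangle for mouse 1, 2 and 3), blue at 12-weeks and red at 34-weeks, and lines are means of 3 mice. Cidea spans 0.161 to 0.478 CPM at 12-weeks and 1.83 to 59.1 CPM at 34-weeks, while Vnn1 and Plin2 differ between the groups with less spread.

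Of the cytochromes P450 of families 1 to 3, 31 were tested and 2 were called higher, Cyp2b9 and Cyp3a59, where 0.22% of all tested genes were. The count was 0 without mouse 1 or 2 at 12-weeks or mouse 2 at 34-weeks, 1 without mouse 3 at 34-weeks and 3 without mouse 3 at 12-weeks or mouse 1 at 34-weeks, and DESeq2 called 6. Without overlap, 6 members lay higher and 9 lower, as did 8.15% and 4.82% of all tested genes. Cyp3a59 was at 2.62, 2.25 and 2.83 CPM and at 12.5, 17.0 and 13.0 CPM (log2 fold change 2.46 ± 0.39, adjusted p = 0.0117), with little spread in either group. Cyp3a11, the main drug-metabolizing member of its subfamily, overlapped between the groups and was not called (795, 908 and 537 CPM and 1298, 536 and 778 CPM, adjusted p = 1). Cyp1a2, a pericentral enzyme, was at 593, 708 and 684 CPM and at 245, 229 and 343 CPM (log2 fold change -1.28, adjusted p = 0.114), lower in every mouse at 34-weeks but not called. The list had 14 members above 0 and 17 below, and its median was -0.05 (0.08 with total-count scaling).

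The other genes called higher at 34-weeks included several that encode secreted or surface proteins. Gas6, the ligand of the Axl and Mertk receptors, was at 25.6, 29.5 and 34.8 CPM and at 72.5, 115 and 107 CPM (log2 fold change 1.71 ± 0.25, adjusted p = 0.00505), and Lgals1, the lectin galectin-1, at 12.7, 14.4 and 18.7 CPM and at 51.4, 76.0 and 83.3 CPM (log2 fold change 2.20 ± 0.34, adjusted p = 0.00915). Gpc1, a heparan sulfate proteoglycan, was at 9.21, 7.99 and 15.9 CPM and at 25.4, 38.5 and 52.5 CPM (log2 fold change 1.82 ± 0.33), and Nt5e, the ectonucleotidase CD73, at 3.43, 4.21 and 6.49 CPM and at 9.73, 18.3 and 16.5 CPM (log2 fold change 1.66 ± 0.31). In these 4 genes the groups did not overlap, and mouse 1 was the lowest at 34-weeks. Ntrk2, a neurotrophin receptor, was at 2.46, 1.20 and 4.71 CPM and at 6.25, 18.2 and 32.6 CPM (log2 fold change 2.77 ± 0.52, adjusted p = 0.0292), and the receptor gene Gprc5b, which was almost absent at 12-weeks, at 0.268, 0.143 and 0.314 CPM and at 0.767, 15.6 and 14.8 CPM (log2 fold change 5.42 ± 0.94, adjusted p = 0.0198). Both varied more among the mice at 34-weeks than Gas6 did.

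Wfdc2, a whey acidic protein with protease inhibitor domains, was at 4.23, 4.74 and 5.91 CPM and at 20.8, 17.7 and 17.4 CPM, and here mouse 1 was the highest at 34-weeks (log2 fold change 1.91 ± 0.39, adjusted p = 0.0432); it was called in none of the 6 fits with 1 library left out. Tafa2, a small secreted protein, was at 0.107, 0.191 and 0.157 CPM and at 2.36, 2.40 and 2.02 CPM (log2 fold change 3.84 ± 0.66, adjusted p = 0.0198), even among the mice at 34-weeks. Also higher were Tlr12, a Toll-like receptor (2.12), Gal3st1, which makes sulfatides (2.49), Stap1, a signalling adaptor (1.67), and Tor3a, a torsin of the endoplasmic reticulum (1.05). Lrrc39 (2.01), Mab21l3 (4.04) and 2010003K11Rik (2.13) complete the genes called higher, all as log2 fold changes.

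Of the remaining genes called lower, Cdh1, which encodes E-cadherin of the periportal hepatocyte junctions, was at 42.6, 31.8 and 42.2 CPM and at 11.4, 3.90 and 3.46 CPM (log2 fold change -2.65 ± 0.38, adjusted p = 0.00505), with mouse 1 the highest of the 34-week mice. It was the only called gene among 19 periportal genes, of which 8 were above 0 and 11 below. The complement component C6 (209, 219 and 201 CPM and 88.5, 77.9 and 80.0 CPM, log2 fold change -1.35 ± 0.27) and the coagulation factor F11 (60.6, 60.0 and 60.7 CPM and 24.2, 26.6 and 26.7 CPM, log2 fold change -1.23 ± 0.21) had small spread in both groups, and C6 was the only called gene of 30 in the complement list. Lifr, the receptor of leukemia inhibitory factor, was at 307, 299 and 260.4 CPM and at 178, 103 and 95.3 CPM (log2 fold change -1.20 ± 0.24), and Foxq1, a forkhead transcription factor, at 52.2, 35.6 and 45.2 CPM and at 7.37, 14.7 and 14.0 CPM (log2 fold change -1.88 ± 0.31). Prok1, a secreted prokineticin, and Eif4ebp3, which restrains translation, had log2 fold changes of -2.81 and -2.77 (adjusted p = 0.0417 and 0.0244). None of these 7 genes overlapped between the groups.

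Among 21 transcription factors of hepatocytes edgeR called none (4 had an unadjusted p under 0.05) and DESeq2 called 2. The lowest adjusted p by edgeR was that of Hhex, a homeobox factor, with 146, 182 and 152 CPM and 62.6, 58.1 and 88.4 CPM (log2 fold change -1.20, adjusted p = 0.0627). Onecut1, a cut-homeobox factor of hepatocytes, was at 66.2, 15.5 and 59.5 CPM and at 2.71, 5.67 and 13.8 CPM (-2.66, adjusted p = 0.114). Both lay lower in every mouse at 34-weeks. Igfbp1, a fasting-induced IGF-binding protein, was at 49.9, 729 and 211 CPM and at 33.7, 35.0 and 31.8 CPM (adjusted p = 0.0882), spread widely at 12-weeks and nearly equal at 34-weeks.

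**Figure D3:**
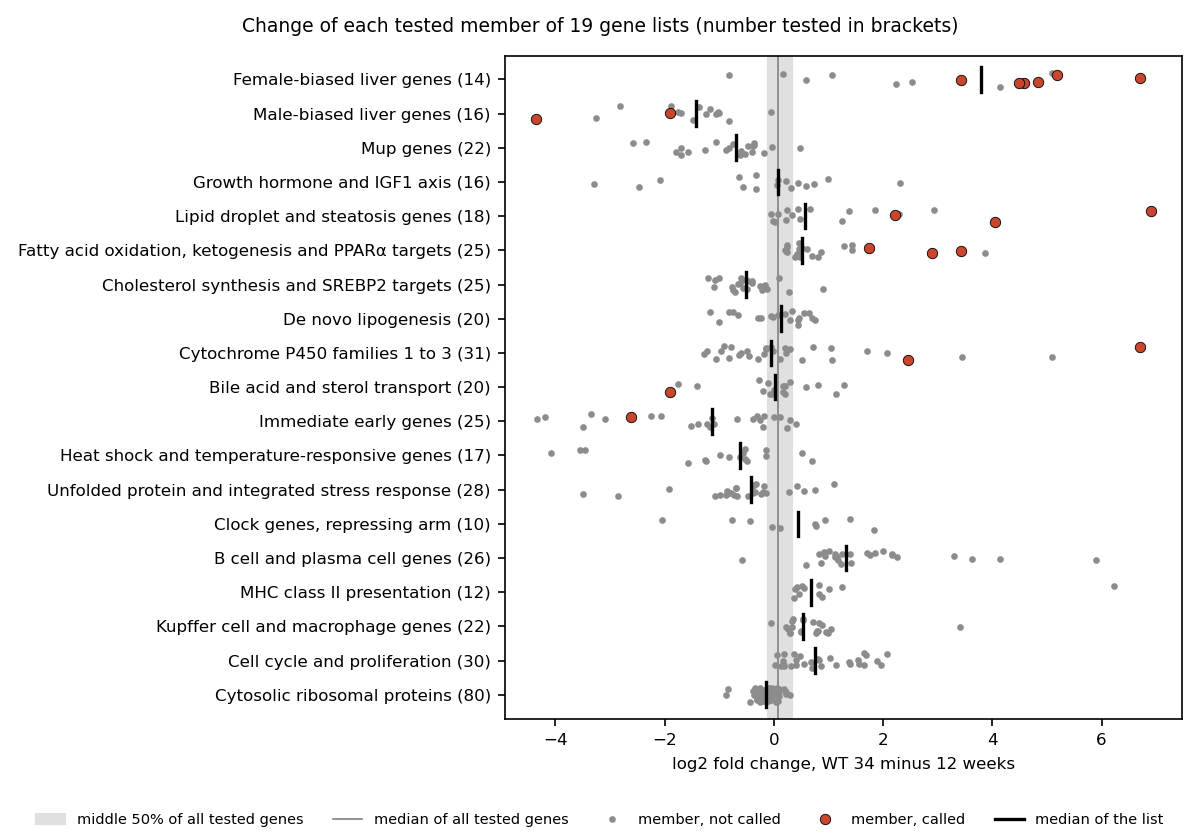
Log2 fold change of every tested member of 19 gene lists, WT livers at 34- minus 12-weeks; grey points are members that were not called, red points are called members, the black bar is the median of the list, and the grey band holds the middle 50% of all tested genes (-0.11 to 0.33). The female-biased list has its median at 3.79, over only the members that passed the read minimum, some of them mostly through the 34-week WT livers. The male-biased list has its median at -1.42. The 80 ribosomal protein genes have theirs at -0.14, which is -0.75 without mouse 1 at 34-weeks and 0.0850 to 0.11 without mouse 2 at 12-weeks or mouse 2 or 3 at 34-weeks.

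Immediate early genes, which respond to stimulation within minutes, were lower at 34-weeks as a list (20 of 25 below 0, median log2 fold change -1.12), and this rested on 1 liver. Summed, they were at 692, 2318 and 515 CPM at 12-weeks and at 534, 526 and 436 CPM at 34-weeks, so that mouse 2 at 12-weeks stood above the other 5. Without that mouse, the median was -0.02 and 12 of 25 were above 0. Egr1 was at 15.7, 369.7 and 12.6 CPM and at 3.48, 12.4 and 3.70 CPM, and Fos at 4.23, 43.8 and 1.78 CPM and at 1.65, 2.36 and 0.895 CPM; neither was called (adjusted p = 0.122 and 0.161). Myc, a growth regulator of the same list, was the called member, and it was not confined to that mouse, with 10.7, 14.2 and 4.40 CPM and 0.826, 1.85 and 2.02 CPM (log2 fold change -2.61 ± 0.43, adjusted p = 0.0151). Without mouse 2 at 12-weeks its log2 fold change was -2.24 (adjusted p = 0.0872; 2.87e-08 to 0.272 over all alternatives).

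Of 17 heat shock and temperature-responsive genes, 15 were below 0, and 9 lay lower without overlap, as did 4.82% of all tested genes. The 2 above 0 were Cirbp and Rbm3 (log2 fold changes 0.71 and 0.52). The median log2 fold change of the list was -0.63, and -0.31 without mouse 2 at 12-weeks. Of the 17, edgeR called none (9 lower and 1 higher, Cirbp, at an unadjusted p under 0.05). It called 1 without mouse 3 at 12-weeks, and DESeq2 called 3 lower. Mouse 2 at 12-weeks was again the highest, with a summed level of 3666, 9623 and 4185 CPM at 12-weeks and 2640.2, 3268 and 3114 CPM at 34-weeks. The cochaperone gene Dnajb1 was at 32.2, 1000.2 and 38.2 CPM and at 22.6, 19.5 and 21.7 CPM, and its log2 fold change of -4.07 (adjusted p = 0.0882) became -0.73 without mouse 2 at 12-weeks. This liver also held traces of muscle RNA, with 41 reads of Acta1 and 32 of Ckm, compared to at most 2 reads of either in the other 5 livers; 10 of 11 muscle markers did not pass the read minimum. Their part in the result was not tested. Of 28 genes of the unfolded protein and integrated stress response, 23 were below 0 with a median of -0.42 and edgeR called none (11 had an unadjusted p under 0.05, all lower), with the lowest adjusted p of 0.0829 for Atf3, which is also an immediate early gene. DESeq2 called 1, and edgeR called 1 without mouse 3 at 12-weeks.

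Cholesterol synthesis genes were lower in the same direction without a call by edgeR. Of 25, 22 were below 0 (39.0% of all tested genes were), and the median log2 fold change was -0.51. With total-count scaling the median was -0.34 and 18 of 25 were below 0. Without overlap, 9 lay lower and 0 higher, next to 4.82% and 8.15% of all tested genes. At an unadjusted p under 0.05 by edgeR there were 9 lower and 1 higher. Insig1, which retains the SREBP proteins in the endoplasmic reticulum, was at 859, 1687 and 554 CPM and at 433, 491 and 527 CPM (adjusted p = 0.248). Mouse 2 at 12-weeks was the highest of all livers. DESeq2 called 1 gene of this list.

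Several immune and proliferation lists leaned upwards at 34-weeks without a call by edgeR. In bulk liver, a change in the number of cells and a change in the RNA of each cell cannot be told apart. Of 26 B cell and plasma cell genes 25 were above 0 (median 1.32), and DESeq2 called 2. Their summed level of 61.4, 70.8 and 41.0 CPM at 12-weeks and 73.6, 316 and 72.5 CPM at 34-weeks shows that mouse 2 at 34-weeks held most of the difference. Igkc, an immunoglobulin light chain, was at 1.87, 5.69 and 2.35 CPM and at 8.26, 84.0 and 5.45 CPM, and Ighg2c, a heavy chain, at 0, 0.526 and 0.157 CPM and at 0.413, 42.6 and 0.117 CPM (adjusted p = 0.128 and 0.185). Without mouse 2 at 34-weeks, 20 of the 26 were above 0 and the median was 0.28.

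All 12 genes of MHC class II presentation were above 0 (median 0.69), among them Cd74, the invariant chain, at 33.6, 72.2 and 34.0 CPM and at 50.5, 135 and 61.5 CPM (adjusted p = 0.921), and H2-Eb2, which had 0 reads at 12-weeks and 29 at 34-weeks, at least 8.34-fold higher against a floor of 3 reads over the group (adjusted p = 0.114). At an unadjusted p under 0.05 by edgeR there were 2 of them, and DESeq2 called 1. Of 22 Kupffer cell and macrophage genes 21 were above 0 (median 0.53), with 3 at an unadjusted p under 0.05 by edgeR and no call by DESeq2. Marco, a scavenger receptor of macrophages, was at 1.98, 2.63 and 0.994 CPM and at 11.9, 41.0 and 6.69 CPM (adjusted p = 0.482), while Clec4f, which marks Kupffer cells, overlapped between the groups (78.5, 114 and 45.4 CPM and 160.1, 113 and 69.5 CPM). All 30 cell cycle genes were above 0 (median 0.76), with 8 that lay higher without overlap (8.15% of all tested genes did), and edgeR called none (3 had an unadjusted p under 0.05) as did DESeq2. Mki67, which cells express while cycling, was at 0.75, 0.478 and 0.994 CPM and at 1.12, 4.14 and 3.97 CPM (adjusted p = 0.559). These levels are low, and 60.7% of all tested genes were above 0.

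**Figure D4:**
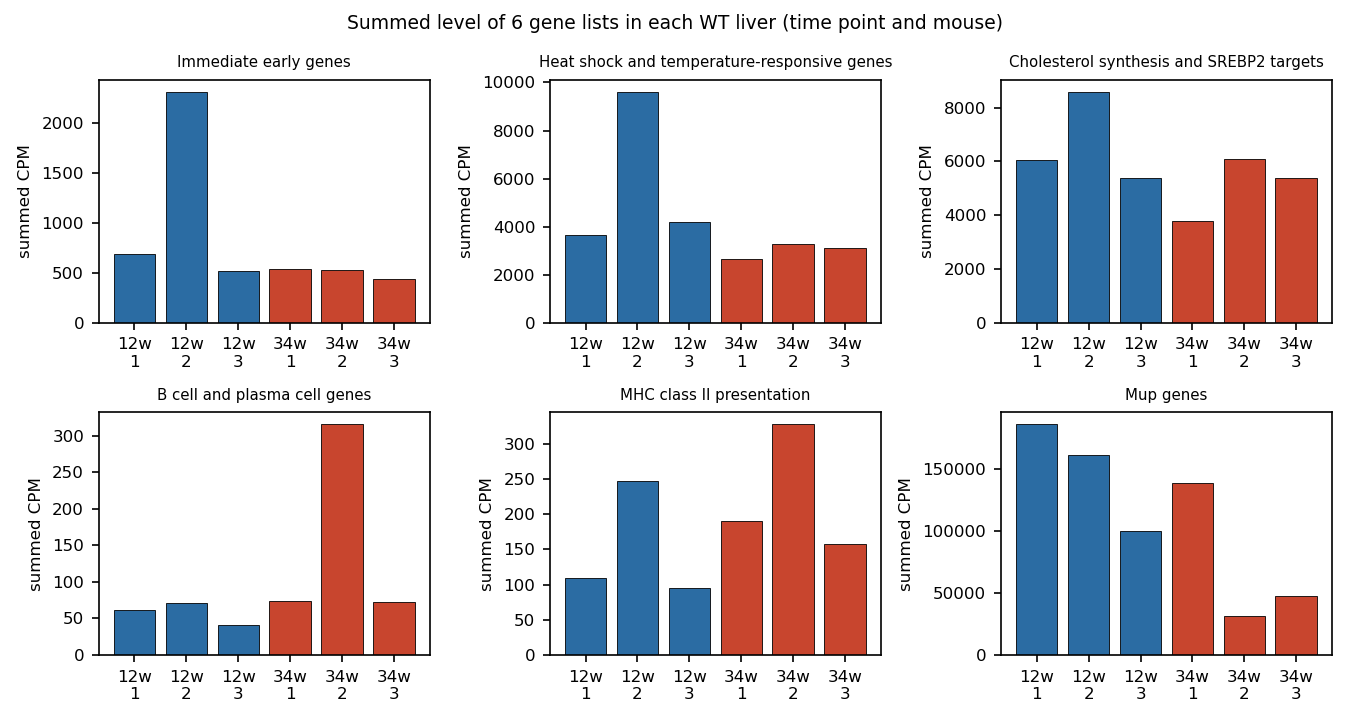
Summed level of 6 gene lists, in CPM on axes that start at 0, in each of the 6 WT livers (12-weeks in blue, 34-weeks in red, mouse number below). One bar stands apart in the immediate early list and in the heat shock and temperature-responsive list (mouse 2 at 12-weeks, 2318 and 9623 CPM). The same holds for the B cell list (mouse 2 at 34-weeks, 316 CPM), and mouse 1 at 34-weeks keeps a Mup level of 138252 CPM.

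The time of day of sampling is not given in the sources used here, so the clock genes were read as a description of each liver. None of the 25 genes in the 3 clock lists was called by edgeR (6 had an unadjusted p under 0.05, and DESeq2 called 1). Dbp, a clock output gene with a deep daily rhythm, was at 0.911, 1.00 and 1.26 CPM and at 4.54, 2.13 and 32.0 CPM (log2 fold change 3.61, adjusted p = 0.111), and Nr1d1, which encodes the repressor REV-ERBα, at 7.39, 8.95 and 37.9 CPM and at 40.8, 47.4 and 105 CPM (adjusted p = 0.635). In both genes mouse 3 was the highest at either time point. Per1 was at 1.45, 14.2 and 8.37 CPM and at 0.413, 2.09 and 3.19 CPM (adjusted p = 0.559), and Arntl, of the activating arm, at 19.4, 16.9 and 21.9 CPM and at 14.4, 22.3 and 12.1 CPM, overlapping between the groups.

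The gene that the other mice lack, Lipa, did not differ detectably between the time points in WT livers, with 202, 267 and 241 CPM and 308, 283 and 323 CPM (log2 fold change 0.37, adjusted p = 0.773). The 3 mice at 34-weeks were nonetheless all above those at 12-weeks. Among 22 lysosomal genes none was called by edgeR (1 had an unadjusted p under 0.05) or DESeq2, 19 were above 0 and the median was 0.27. Reads of human LIPA, which only the vector carries, were 0, 0 and 0 at 12-weeks and 1, 23 and 0 at 34-weeks.

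Whether the change between the time points differed from that in Lipa-/- livers was tested with an interaction contrast. In untreated Lipa-/- livers, 72 genes changed (0.495% of those tested, with 5 higher, 0.0344%, and 67 lower, 0.461%), and in treated ones 4648 did (32.0%). The difference of the change between WT and untreated Lipa-/- was called for 9 genes (0.0619%; 2 to 72 with 1 library left out, the extremes without untreated 34-week mouse 5 and mouse 6), of which 5 were among the 47: Selenbp2, Slc22a27, Slc22a29, Cyp3a59 and Myc. Against treated Lipa-/- it was called for 2675 genes (18.4%), of which 30 were among the 47, but the count of 2675 rested on single libraries. It was 1 without mouse 9 of the treated 34-week group, 3 without WT mouse 3 at 12-weeks, 64 without WT mouse 1 at 12-weeks, 172 without WT mouse 1 at 34-weeks, 458 without treated mouse 10 at 12-weeks and 1248 without treated mouse 11 at 34-weeks. Both contrasts contain the WT change by which the 47 were chosen. Their share among the 47, and the size of the differences of these genes, therefore tend to be too large.

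In untreated Lipa-/- livers Slc22a27 was at 9.68, 6.72 and 5.21 CPM at 12-weeks and 5.52, 3.44 and 5.92 CPM at 34-weeks, above the 12-week WT level at both times. The log2 changes of the 2 genotypes differed by 5.12 (adjusted p = 0.00161). Slc22a29 stayed low throughout, at 0.603, 0.505 and 0.646 CPM and 0.536, 0.309 and 0.331 CPM in untreated and 0, 0.326 and 0.307 CPM and 0.325, 0.491 and 0.194 CPM in treated Lipa-/- livers (difference from untreated 5.28, adjusted p = 0.00826). Selenbp2 was low already at 12-weeks in untreated Lipa-/- livers, with 25.7, 41.7 and 35.4 CPM, and at 11.6, 9.81 and 23.3 CPM at 34-weeks (difference -5.22, adjusted p = 0.00459). In treated livers it was at 1378, 475 and 1696 CPM and then at 369, 218 and 217 CPM, a fall of lesser size (difference -4.28, adjusted p = 0.0166). Myc was at 12.0, 9.90 and 10.6 CPM and 20.1, 18.8 and 13.1 CPM in untreated Lipa-/- livers, where every mouse at 34-weeks was above those at 12-weeks (difference -3.29, adjusted p = 0.0495).

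Cidea and Cidec were low in the Lipa-/- livers. Cidec was at most 1.27 CPM in the 6 untreated and at most 2.89 CPM in the 6 treated livers, next to up to 38.9 CPM in WT livers at 34-weeks. Cidea was at most 1.24 CPM in the 6 untreated and at most 2.14 CPM in the 6 treated livers, next to up to 59.1 CPM in WT livers at 34-weeks. The difference of its change was 5.88 against untreated (adjusted p = 0.191, not called) and 7.46 against treated livers (adjusted p = 0.0241). Cyp2b9 did not exceed 2.24 CPM in any of the 12 Lipa-/- livers, and neither of its differences was called (adjusted p = 0.266 and 0.915). Its log2 fold change was 1.62 ± 1.05 in untreated and 5.11 ± 3.26 in treated livers, neither called. At these low levels, whether it rose in treated livers cannot be told. Gas6, by contrast, was high at both times in untreated Lipa-/- livers (195, 213 and 168 CPM and 217, 280.5 and 207 CPM), and in treated livers it rose from 20.9, 37.9 and 23.5 to 59.1, 53.4 and 68.8 CPM.

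Of the 32 genes that rose in WT livers, 13 were above 0 in untreated and 22 in treated Lipa-/- livers, with median log2 fold changes of -0.12 and 0.50. Of the 15 that fell, 12 were below 0 in each, with medians of -0.68 and -0.77. None of the 47 was called in untreated Lipa-/- livers, and 10 were called in the same direction in treated ones. These were Gal3st1, Gas6, Gpc1, Ntrk2, Tlr12 and Vnn1 higher, and Eif4ebp3, Lifr, Selenbp2 and Serpina9 lower. In treated livers, 2544 of all 14533 tested genes were called higher and 2104 lower. With calls this common there, a call in treated livers does not by itself show a change shared with WT livers. The female-biased list had a median of -0.67 in untreated and 0.85 in treated Lipa-/- livers, with none called in untreated and 2 called lower in treated livers. The male-biased list had medians of -0.66 and -1.02, with none called in untreated and 2 called higher and 7 lower in treated livers. The differences between genotypes of these list medians were not tested.

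**Figure D5:**
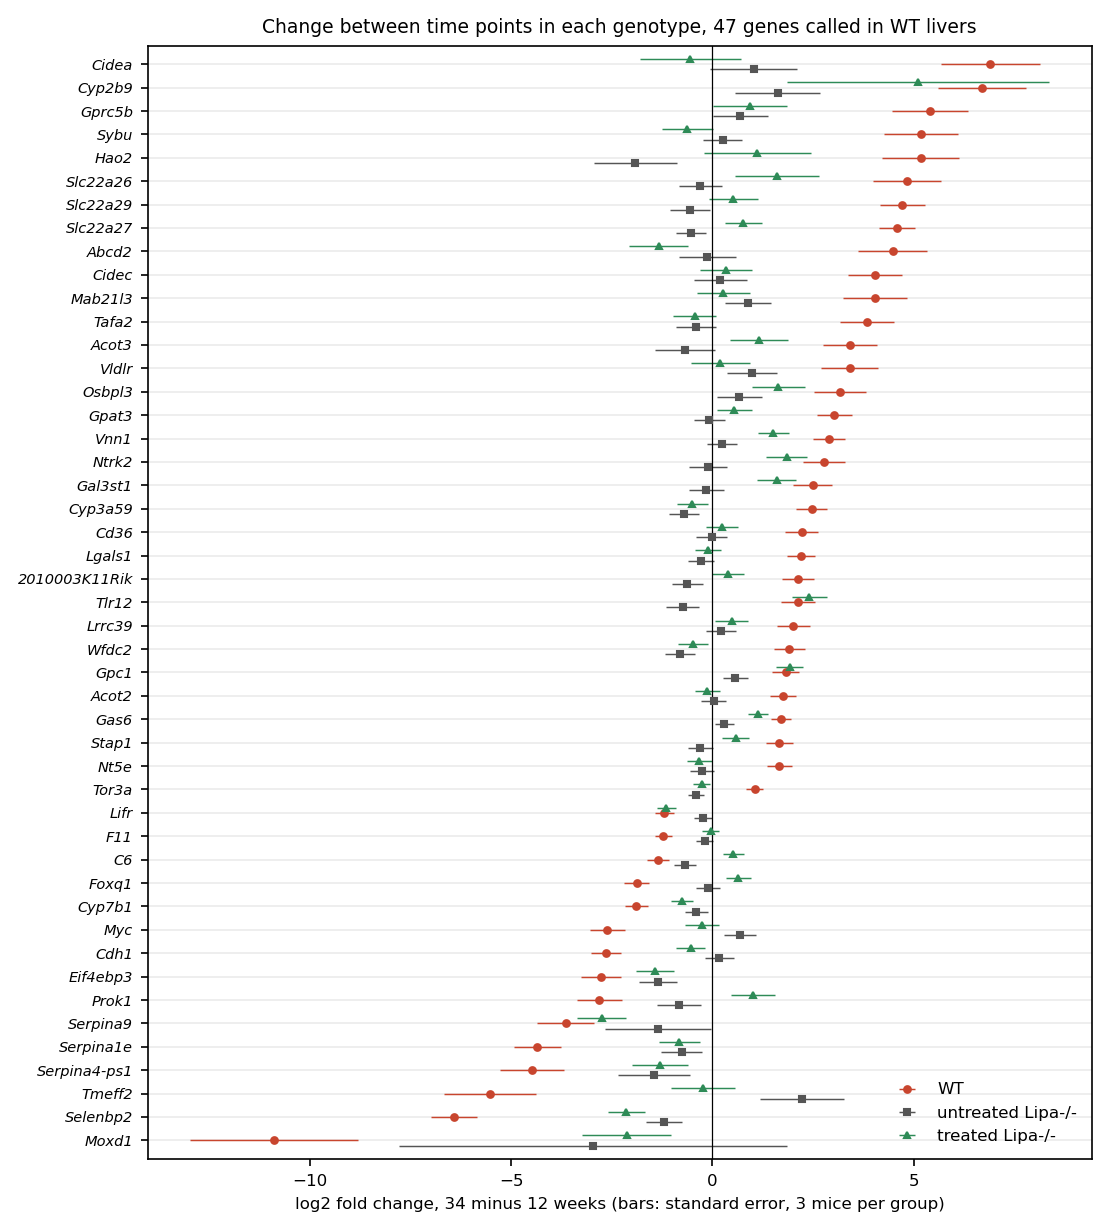
Log2 fold change between 34- and 12-weeks of the 47 genes called in WT livers (red circles). The same genes are shown in untreated (grey squares) and treated (green triangles) Lipa-/- livers. Bars are standard errors from the edgeR fit to all 18 libraries, with 3 mice per group. Many grey and green points lie nearer to 0 than the red ones, as for Cidea (6.91 in WT, 1.02 in untreated and -0.55 in treated livers). Others lie away from 0 on the side of the red ones, as for Eif4ebp3 (-2.77, -1.36 and -1.44). Of the 15 genes lower in WT, 12 are below 0 and 3 above in either Lipa-/- group. Their medians there are -0.68 in untreated and -0.77 in treated livers. Gpc1 is similar in WT (1.82) and treated livers (1.92), and Cyp2b9 is at 5.11 in treated livers with a standard error of 3.26.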

How the data were processed

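RNA-seq was measured in the livers of 18 mice, grouped by genotype, treatment and time from the labels, with 3 mice per group. The authors quantified polyA RNA reads with Salmon against mouse transcripts and summarised them per gene, and they deposited estimated counts, TPM and gene lengths in bases. Their submitted notes name R 4.3.0 and DESeq2 1.40.1. A deposited table of their DESeq2 comparisons (log2 fold changes and p-values) was not used. Estimated counts (19.4% of values not whole) were rounded. Genes with more than 100 reads over 18 libraries were fitted with edgeR 4.0.16 (R 4.3.3; TMM, 6 group means, quasi-likelihood test), and p was adjusted by Benjamini-Hochberg over 14533 genes. Calls needed an adjusted p under 0.05 and a log2 difference of more than 1 in size. CPM are TMM-scaled. A fold against a group with no reads was taken against a floor of 3 reads over the group, and 3 reads in 1 library are 0.117 to 0.177 CPM; intervals and floors cover counting error only.

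Samples are separate mice, described as age- and sex-matched littermates assigned to treatments at random, and p-values measure the spread between them. An exact permutation test of 3 against 3 mice cannot go below p = 0.1, so single values were tested by edgeR alone. Across time points, same-numbered mice correlated in their deviations at r = 0.12, -0.44 and 0.67, and unlike-numbered mice at r = -0.72 to 0.60. These few values cannot settle a pairing. Since the samples are separate mice, numbers were not taken as pairs. Alternatives were DESeq2 1.42.0, other scalings and filters, limma 3.58.1 on log2(TPM + 0.1), a replicate block and leaving out each library; the removal of length and GC trends was added after seeing the data. The method was tested on simulated counts that held no outlying library, length trend or difference between study codes. That test cannot speak for the dependence of the real calls on single libraries. Named genes were the 12 called genes of largest change per direction (mean of at least 1 CPM, no overlap, filled by smallest p), up to 4 called members of each gene list or 2 of smallest p, Lipa and the clock genes; all other genes named were chosen after their values were seen. The comparison, the lists and the tests were chosen with earlier results of these data known. Some genes that the rule names are not reported here.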

Additional observations from a re-analysis of the deposited data

Results flagged for a closer look

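The change between 34- and 12-weeks differed between WT and untreated Lipa-/- livers, by the interaction test of edgeR, for 5 of the genes named. The log2 change in WT minus that in untreated Lipa-/- livers was 5.28 for Slc22a29, 5.12 for Slc22a27, -5.22 for Selenbp2, -3.29 for Myc and 3.17 for Cyp3a59.

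Against treated Lipa-/- livers, 47 of the genes named differed, 30 of them called in WT. Among the called genes the difference was 7.46 for Cidea, 5.82 for Abcd2, 5.81 for Sybu, 4.47 for Gprc5b, 4.28 for Tafa2, 4.21 for Slc22a29, 3.82 for Slc22a27, 3.77 for Mab21l3 and 3.70 for Cidec. It was 3.22 for Vldlr, 2.96 for Cyp3a59, 2.48 for Gpat3, 2.40 for Wfdc2, 2.32 for Lgals1, 1.99 for Nt5e, 1.98 for Cd36, 1.87 for Acot2, 1.74 for 2010003K11Rik and 1.32 for Tor3a for further genes on the higher side. On the lower side it was -8.77 for Moxd1, -5.28 for Tmeff2, -4.28 for Selenbp2, -3.83 for Prok1, -3.53 for Serpina1e, -3.18 for Serpina4-ps1, -2.52 for Foxq1, -2.35 for Myc, -2.10 for Cdh1, -1.87 for C6 and -1.18 for F11. Of the genes not called in WT, the difference was 6.39 for Klrb1c, 6.25 for Ighg2c, 5.71 for H2-Eb2, 4.08 for Igkc, 3.78 for Leap2, 3.58 for Trbc1, 3.32 for Fst, 2.70 for Id1, 2.41 for Lgals3, 1.399 for Nampt, 1.278 for Hexa and 1.13 for Cox5b, and on the lower side -4.27 for Onecut1, -3.63 for Hspa1a, -2.95 for Npas2, -1.66 for Cyp1a2 and -1.62 for Hhex. All of these differences against treated livers were called in a fit whose count of calls fell to 1 without mouse 9 of the treated 34-week group, to 3 without WT mouse 3 at 12-weeks and to 64 without WT mouse 1 at 12-weeks. The genes called in WT were chosen by the WT change that is part of every difference, against untreated livers too. The sizes of their differences therefore tend to be too large.

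Human LIPA, which the vector carries and WT mice were not given, was read 23 times in WT mouse 2 at 34-weeks, compared to 0 or 1 read in the other 5 WT livers. With 3 mice per group, no group was large enough to be screened for outlying samples.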

How the results depend on the processing

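The 47 calls became 184 by DESeq2, 86 with no filter on low counts, 9 with only the libraries compared and 10 at an adjusted p under 0.01, and 7 to 102 with 1 library left out. They were 9 without WT mouse 1 at 12-weeks, 13 without mouse 2 at 12-weeks or mouse 3 at 34-weeks, 7 without mouse 2 at 34-weeks and 102 without mouse 1 at 34-weeks. All 47 genes kept their direction in every alternative, which is no independent check since they were chosen from the same libraries. Of their 752 values, 294 lost the call. DESeq2 called 44 of the 47, and limma on TPM 25. The share of higher calls was 68.8% with no minimum fold, 59.8% by DESeq2, 58.1% with no filter and 33.3% without mouse 1 at 12-weeks. The median over all genes moved by 0.14 with total counts and by 0.17 with limma. With a replicate block over the 6 WT libraries, 11 genes and 7 list members were called, but the numbers do not pair the mice.

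List members called, 17 in all, were 54 by DESeq2, 35 with no filter, 5 with only the libraries compared, 5 at an adjusted p under 0.01, and 3 to 26 with 1 library left out. The 9 genes that differed from untreated Lipa-/- livers became 171 by DESeq2, 4 with length offsets, 33 with no filter, 14 with only the libraries compared, 4 at an adjusted p under 0.01, 19 by limma, 25 with length and GC trends removed, and 2 to 72 with 1 library left out. The 2675 against treated livers became 6 with only the libraries compared, 0 at an adjusted p under 0.01 (edgeR; 2844 at 0.05 with no minimum fold), and 1 to 3451 with 1 library left out. The causes of these shifts were not tested.

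Of 94 genes named but not called, 13 changed sign somewhere: log2 fold changes were -0.0923 for Vwf, 0.0822 for Nfil3 and 0.33 for Noct with limma on TPM, -0.12 for Mylpf and 0.13 for Noct with DESeq2, -0.10 for Mylpf and 0.14 for Noct with length offsets, -0.0131 for Mylpf with only the libraries compared, -0.11 for Mylpf with the replicate block, -0.00581 for Mylpf with length and GC trends removed, 0.13 for Bhlhe41, 0.078 for Nfil3 and 0.0704 for Noct with total counts. With 1 WT library left out, their log2 fold changes ran from 0 to 5.27 for Prss2, -2.005 to 5.59 for Ctrb1, -0.80 to 0.47 for Mylpf, -0.0036 to 0.35 for mt-Nd6, -0.39 to 0.0624 for Clock, -0.32 to 0.39 for Bhlhe40, -1.30 to 0.57 for Bhlhe41, -0.38 to 0.28 for Nfil3, -0.28 to 0.0883 for Noct, -0.12 to 0.93 for Usp2, -0.0135 to 0.22 for Nampt and -0.34 to 1.18 for Leap2. Among these 94, 20 genes were called under some alternative. With 3 mice per group, a difference that was not called may still exist, and study code and time cannot be told apart.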
